A study of Homo sapiens with 3 samples.

Results

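The genes described here are NQO1, HMOX1, GCLC, GCLM, TXNRD1, SRXN1, AKR1C1, AKR1C3, AKR1B10 and PIR, a set of textbook targets of the transcription factor NRF2, and they were taken from the deposited table by symbol. All 10 were found among its 50867 genes. They were measured by RNA sequencing of polyA+ RNA in UM-UC-3 cells, a line long grown from a human bladder cancer. The control library (shControl, n = 1) came from cells infected with a lentivirus for a scramble short hairpin RNA, and the other group (shBLACAT2, n = 2) from cells with a hairpin that targets BLACAT2, a long non-coding RNA. There were 2 such hairpins with 1 library each, called shRNA 1 and shRNA 2. Values of a gene in the 3 libraries are always given in the order control, shRNA 1, shRNA 2. All cells, the control included, were infected and kept under puromycin for 2 weeks to give stable lines, and the labels name neither repeated cultures nor separate clones. In bulk RNA of this kind, fewer cells of a type and less RNA per cell cannot be told apart.

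NRF2, encoded by NFE2L2, is a transcription factor that is normally held in the cytoplasm by KEAP1 and degraded. Electrophiles and oxidants modify KEAP1, NRF2 then enters the nucleus, pairs with a small MAF protein and binds the antioxidant response element, which the repressor BACH1 can also occupy. Its targets make glutathione (GCLC, GCLM), keep thioredoxin and peroxiredoxins reduced (TXNRD1, SRXN1), reduce quinones and break down haem (NQO1, HMOX1), and reduce carbonyls and steroids with NADPH (the aldo-keto reductases). Activation of this pathway by mutation is known in bladder and other epithelial cancers.

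The 10 genes did not differ from the control as a unit. PIR was the 1 gene at least 2-fold higher than the control with both hairpins, at 10, 82 and 26 counts; of all genes tested, 9.79% reached that size with both hairpins in 1 direction or the other. AKR1B10 (17, 6 and 192 counts) was 3.35-fold lower with shRNA 1 and 9.93-fold higher with shRNA 2. TXNRD1 (1867, 2690 and 5494) stood 2.59-fold above the control with shRNA 2, and HMOX1 (1952, 517 and 1764) was 4.47-fold lower with shRNA 1 alone. The ratio of GCLM to the control was 0.748 and 0.533, and those of NQO1, GCLC and SRXN1 lay between 0.849 and 1.26. AKR1C1 and AKR1C3 were hardly counted at all. Of the 8 that could be tested none passed the group test, edgeR's quasi-likelihood test at an adjusted p of 0.05, which 0.0397% of all genes passed. At least 2-fold apart between the hairpin libraries themselves were 4 of the 8, against 12.8% of all genes. AKR1B10 and PIR, among these, reached the level needed for testing only through hairpin libraries.

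The libraries held between 16216947 and 17670199 counts. The targeted RNA, listed as LINC00958, had 938, 816 and 1062 counts. Its scaled ratio to the control was 0.735 in the library labelled shRNA 1 (95% counting interval 0.668 to 0.808) and 0.996 in that labelled shRNA 2 (0.911 to 1.09). By the authors' FPKM (counts divided by gene length and library total) it stood at 9.56, 7.73 and 11. No reduction of the targeted RNA was thus seen in the library labelled shRNA 2, and each comparison is between libraries with these labels. Keratin genes of epithelial cells were abundant in all 3 libraries (KRT8 had 9813 to 16188 counts), and of the uroplakin genes UPK1A and UPK3A had at most 1 count, UPK1B had 306, 2311 and 923 and UPK2 had 35, 108 and 104. The 12 epithelial and urothelial markers summed to 3400, 4428 and 2662 scaled CPM. Of the 10 tested, 3 (UPK1B, UPK2 and CDH1) exceeded the control at least 2-fold with both hairpins, against 5.29% of all genes. Of 6 fibroblast markers PDGFRB (152, 15 and 31 counts) was the 1 tested, and COL1A2, COL3A1, DCN, LUM and PDGFRA had at most 20 counts; the level of the 6 together, in CPM (counts scaled by library size), was 12.8, 0.946 and 2.09. The 7 leukocyte markers summed to 129 to 132 CPM, nearly all of it CD74, with CD68 at 0, and the 5 endothelial markers to 3.84 to 7.88 CPM. The library of shRNA 2 also had the lowest share of mitochondrial transcripts (3.88, 4.58 and 2.51%). The part of these differences in the results below was not tested.

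Levels within a gene are given as CPM scaled with edgeR's TMM factors, and levels between genes as the authors' FPKM, which also divides by gene length. By FPKM in the control, HMOX1 was the highest of the 10 (32.6), followed by NQO1 (23.8), GCLM (13.3), TXNRD1 (6.27) and GCLC (1.66). AKR1B10 (0.428), SRXN1 (0.361) and PIR (0.208) lay below these and rest on 17, 16 and 10 counts. AKR1C1 and AKR1C3 were last, at 0.0356 and 0.0186. With shRNA 2 the order of the leading genes was HMOX1 (29.8), NQO1 (24.2), TXNRD1 (18.7) and GCLM (8.14), and with shRNA 1 it was NQO1 (33.1), GCLM (10.9), TXNRD1 (8.39) and HMOX1 (8.02). Summed over the 10 genes, the scaled level was 545, 480 and 654 CPM.

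**Figure D1:**
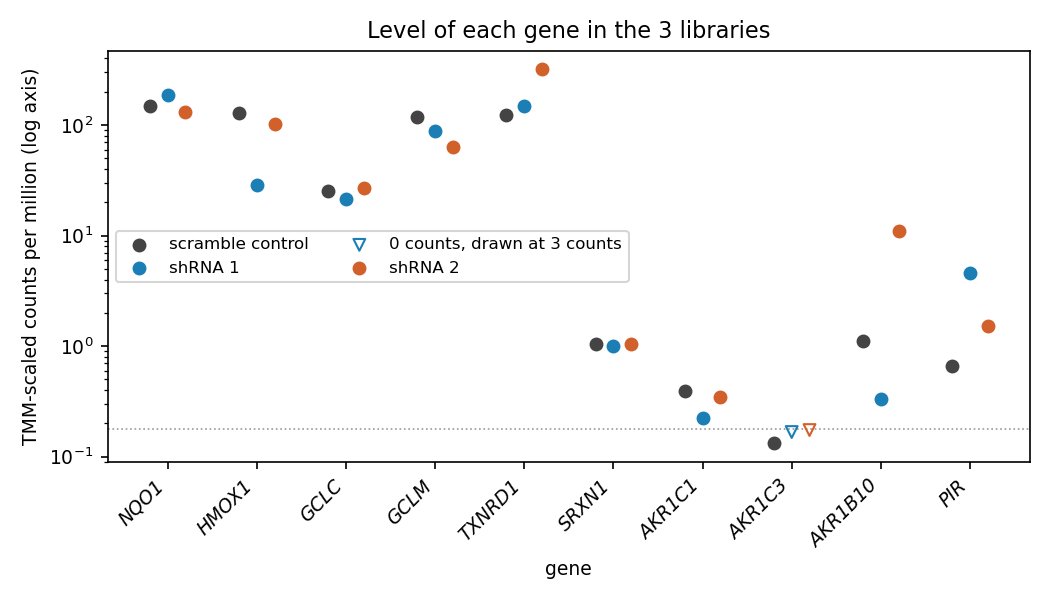
Scaled CPM (log axis) of the 10 genes in the scramble control, shRNA 1 and shRNA 2 libraries, 1 point per library. Open triangles mark a count of 0 and stand at the level of 3 counts in their library, the limit that a count of 0 allows (dotted line, mean over the libraries); NQO1, HMOX1, GCLM and TXNRD1 lie near or above 100 CPM in the control, while SRXN1, AKR1B10, PIR, AKR1C1 and AKR1C3 lie near or below 1 CPM there.

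The start-site regions of these genes were read for the core letters of the antioxidant response element, TGACNNNGC, on both strands. RefSeq windows (GRCh38.p14, 250 bases before to 50 after a start) were found for 8 of the 10 genes, in 10 windows, and 3 genes had a match: GCLM, TXNRD1 and PIR. By window, 4 of the 10 (40%) hold the letters, both TXNRD1 windows among them. Of all 35116 windows of this length, 13.3% hold the letters, as do 29 of 135 windows (21.5%) of the other pathway genes described below. The stretches that hold the matches are shown for all 3 genes, whatever their counts. Capitals mark the match, and a match on the opposite strand appears as its reverse complement.
GCLM, chr1:93909446-93909474, minus strand: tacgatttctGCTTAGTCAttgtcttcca
TXNRD1 first window, chr12:104215670-104215698, plus strand: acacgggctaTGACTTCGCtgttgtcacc
TXNRD1 first window, chr12:104215761-104215789, plus strand: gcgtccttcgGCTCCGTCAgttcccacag
TXNRD1 second window, chr12:104286920-104286948, plus strand: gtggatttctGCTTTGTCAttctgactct
PIR, chrX:15493289-15493317, minus strand: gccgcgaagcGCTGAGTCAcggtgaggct

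Counted from 1 at the first transcribed base, the match of GCLM spans -34 to -26 and reads TGACTAAGC on the opposite strand. The first TXNRD1 window holds a match at -99 to -91 and another that runs from -8 over the start to 1. That of the second TXNRD1 window spans -102 to -94 and reads TGACAAAGC on the opposite strand, and that of PIR spans 27 to 35, inside the transcribed part, and reads TGACTCAGC, again on the opposite strand. The match in PIR overlaps TGACTCA, the letters of an AP-1 site, which 4.95% of all windows hold, and none of the other 4 matches does. The flanks on the left of the GCLM and the second TXNRD1 match can be seen in the 250 bases before each start, where capitals again mark the match.
GCLM, chr1:93909431-93909680, minus strand: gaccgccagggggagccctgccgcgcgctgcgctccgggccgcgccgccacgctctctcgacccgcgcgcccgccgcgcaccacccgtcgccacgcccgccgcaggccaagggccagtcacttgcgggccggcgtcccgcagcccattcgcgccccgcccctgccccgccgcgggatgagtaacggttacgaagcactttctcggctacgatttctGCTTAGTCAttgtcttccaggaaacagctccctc
TXNRD1 second window, chr12:104286782-104287031, plus strand: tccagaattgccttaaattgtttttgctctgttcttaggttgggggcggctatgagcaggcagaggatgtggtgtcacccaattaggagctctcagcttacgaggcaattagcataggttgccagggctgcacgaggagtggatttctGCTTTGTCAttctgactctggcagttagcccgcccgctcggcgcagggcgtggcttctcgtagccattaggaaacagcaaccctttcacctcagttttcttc
Those letters are a description of the windows and say nothing on whether NRF2 is bound there. Genes without a match, NQO1 and GCLC among them, may hold the letters outside the windows, which reach only 250 bases before a start. Of the 3 genes, GCLM had lower counts with both hairpins, PIR higher counts with both, and TXNRD1 its high count with shRNA 2.

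Glutathione synthesis starts with glutamate-cysteine ligase, whose catalytic subunit is GCLC and whose modifier subunit is GCLM. GCLC (ENSG00000001084; build hg38, chromosome 6, 53497341 to 53616970, minus strand) had 381, 383 and 468 counts, or 25.1, 21.3 and 27.1 scaled CPM. The control lay between the hairpin libraries, and the log2 fold averaged -0.06 ± 0.24 (SD, n = 2). Here and below such an SD is between the hairpin libraries, 1 per hairpin. It leaves out any variation of the control, which both folds share. An edgeR adjusted p of 0.981 was found. GCLM (ENSG00000023909; chromosome 1, 93885205 to 93909456, minus strand) had 1786, 1580 and 1082 counts, or 118, 88.0 and 62.7 scaled CPM. Both hairpin libraries were below the control, at ratios of 0.748 (95% counting interval 0.698 to 0.8) and 0.533 (0.494 to 0.575). Averaged over the hairpins the log2 fold was -0.66 ± 0.34 (SD, n = 2), which exceeds that SD, but edgeR's quasi-likelihood test gave a log2 fold of -0.64 (SE 0.35) and an adjusted p of 0.646. The proportion of the subunits differed with shRNA 2. By FPKM there was 8 times as much GCLM as GCLC in the control (counting interval 7.16 to 8.96), 7.04 times with shRNA 1 (6.29 to 7.89) and 3.94 times with shRNA 2 (3.54 to 4.41). The size of each proportion also depends on the gene lengths behind the authors' FPKM, which these intervals do not cover.

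Around this enzyme stood 22 other genes of glutathione synthesis and use, 18 of them tested. At least 2-fold above the control with both hairpins were 3 of the 18 (5.29% of all genes), and none was below by that size (4.50%). With shRNA 1 by itself 4 were above (7.92% of all genes) and none below (7.38%) by that size. With shRNA 2 by itself 6 were above (13.0% of all genes) and 4 below (8.76%) by that size. CHAC1, which degrades glutathione, had 33, 497 and 662 counts. SLC7A11, the cystine importer that supplies the ligase with cysteine, had 89, 425 and 2836 counts, 4.04-fold and 28.0-fold above the control after scaling. MGST1, a membrane-bound glutathione transferase, had 431, 2038 and 1189 counts. None of the 3 passed edgeR's test over all genes (adjusted p = 0.0770, 0.370 and 0.263). DESeq2, which 3.51% of all genes passed, passed CHAC1 (adjusted p = 3.3e-08) and MGST1 (0.0343) and not SLC7A11 (0.408). The list had median log2 folds of -0.18 with shRNA 1 and 0.37 with shRNA 2, against 0.01 and 0.04 over all genes tested.

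Thioredoxin reductase 1, TXNRD1, uses NADPH to reduce thioredoxin, and sulfiredoxin, SRXN1, repairs overoxidized peroxiredoxins. TXNRD1 (ENSG00000198431; chromosome 12, 104215779 to 104350305, plus strand) had 1867, 2690 and 5494 counts, or 123, 150 and 318 scaled CPM. Both hairpin libraries were above the control, at ratios of 1.22 (95% counting interval 1.15 to 1.29) and 2.59 (2.46 to 2.73). The hairpin libraries were themselves 2.13-fold apart (2.03 to 2.23). A log2 fold of 0.83 ± 0.77 (mean and SD, n = 2) just exceeded its SD, and the quasi-likelihood test of edgeR gave 0.93 (SE 0.54) with an adjusted p of 0.684.

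SRXN1 (ENSG00000271303; chromosome 20, 646615 to 653370, minus strand) had 16, 18 and 18 counts, or 1.05, 1.00 and 1.04 scaled CPM. The ratios were 0.951 (95% counting interval 0.458 to 1.99) and 0.989 (0.476 to 2.07). At this depth the intervals do not exclude a difference of about 2-fold in either direction. The low count has a limit of its own: in GENCODE release 29, 85.0% of the exon bases of SRXN1 are also exon of ENSG00000270299, a protein-coding gene on the same strand, which had 1, 2 and 1 counts. How reads in 2 genes were counted is not given in the sources used here, so the level of SRXN1 is uncertain.

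Of 14 other genes of the thioredoxin and peroxiredoxin system, all tested, none was at least 2-fold from the control in the same direction with both hairpins (9.79% of all genes). PRDX1, the most abundant by mean CPM and an NRF2 target, had 5793, 8982 and 2242 counts (ratios 1.31 and 0.340), and thioredoxin itself, TXN, had 3777, 5209 and 2198 (1.17 and 0.512). With shRNA 2, then, the counts of the reductase were above the control while those of its substrate thioredoxin and of PRDX1 were below it. The list medians were 0.12 and -0.11.

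NQO1 reduces quinones with 2 electrons, which keeps them from forming radicals, and is the usual readout of NRF2 activity. NQO1 (ENSG00000181019; chromosome 16, 69706996 to 69726951, minus strand) had 2235, 3337 and 2237 counts, or 147, 186 and 130 scaled CPM. The control lay between the hairpin libraries, at ratios of 1.26 (95% counting interval 1.2 to 1.33) and 0.880 (0.830 to 0.934). With library totals or the deposited FPKM the log2 fold with shRNA 2 was 0.02 in place of -0.18, so NQO1 has no direction with that hairpin. Its log2 fold averaged 0.08 ± 0.37 (SD, n = 2), with an edgeR adjusted p of 0.965. An antisense gene (ENSG00000261602) that shares 17.7% of the exon bases of NQO1 had 0 counts in every library.

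HMOX1, inducible haem oxygenase, breaks haem into biliverdin, iron and carbon monoxide, and is held down by BACH1. HMOX1 (ENSG00000100292; chromosome 22, 35380361 to 35394214, plus strand) had 1952, 517 and 1764 counts, or 129, 28.8 and 102 scaled CPM. The shRNA 1 library stood far below the other libraries, at 0.224 of the control (95% counting interval 0.203 to 0.247), while shRNA 2 was at 0.795 (0.745 to 0.848). Between the hairpins the level was 3.55-fold higher with shRNA 2 (3.22 to 3.92). The average log2 fold of -1.24 ± 1.29 (SD, n = 2) did not exceed its SD. The fit of edgeR gave -0.97 (SE 0.70) and an adjusted p of 0.769.

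**Figure D2:**
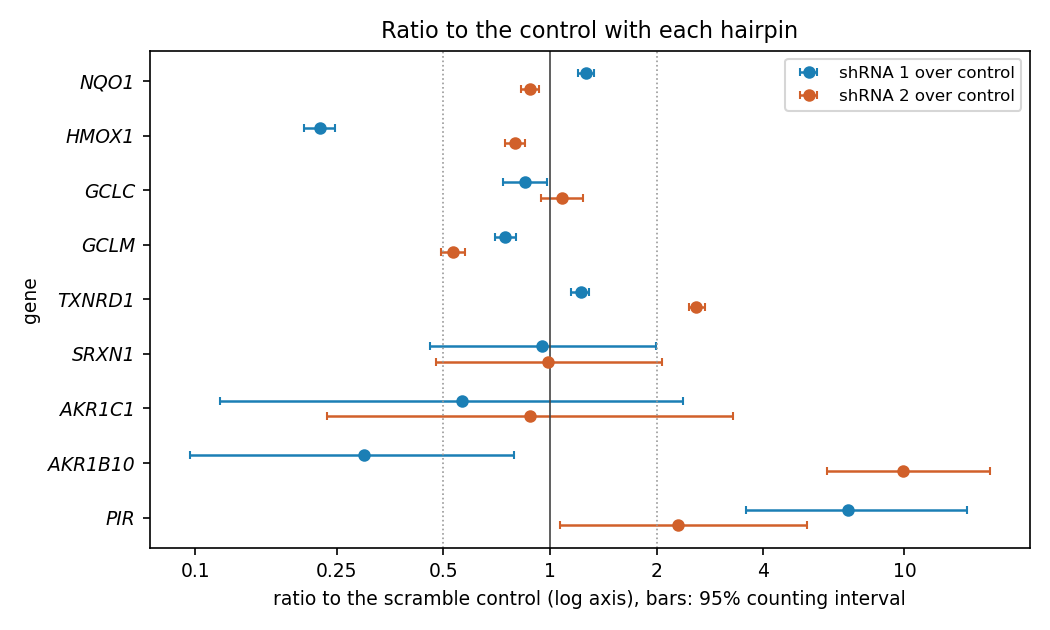
Ratio of each hairpin library to the scramble control (log axis) for the 9 genes with counts in all libraries; bars are 95% counting intervals and dotted lines mark 2-fold. Only PIR lies beyond 2-fold in the same direction with both hairpins, HMOX1 lies at 0.224 with shRNA 1, and AKR1B10 lies on opposite sides of 1.

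Of 10 other genes of haem and iron handling, 9 were tested and 1 was at least 2-fold higher with both hairpins (5.29% of all genes; 3.51% passed DESeq2). This was SLC48A1, which carries haem out of the lysosome, with 78, 391 and 764 counts (ratios 4.24 and 8.61; adjusted p = 0.192 by edgeR and 0.00132 by DESeq2). The ferritin chains, which store iron and are NRF2 targets, have pseudogene copies that may share their reads. FTH1 had 3018, 4532 and 10114 counts (ratios 1.27 and 2.95) and FTL had 8383, 6103 and 8413 (0.615 and 0.883). Among 12 other genes that detoxify quinones, aldehydes and carbonyls, 8 were tested and CYP4F11 alone was at least 2-fold higher with both hairpins, against the same 5.29%, with 129, 521 and 1153 counts (ratios 3.41 and 7.86; adjusted p = 0.242 by edgeR and 0.00282 by DESeq2). ALDH7A1 had 2656, 2950 and 2199 counts and UGDH, which makes the sugar used for glucuronidation, 1098, 859 and 944.

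Aldo-keto reductases reduce aldehydes, ketones and steroids with NADPH. AKR1B10 (ENSG00000198074; chromosome 7, 134527592 to 134541408, plus strand), which reduces retinal and lipid aldehydes, had 17, 6 and 192 counts, or 1.12, 0.334 and 11.1 scaled CPM. The shRNA 2 library stood apart from both others and the control lay between the hairpins. The ratios were 0.298 with shRNA 1 (95% counting interval 0.0963 to 0.793) and 9.93 with shRNA 2 (6.04 to 17.4), and shRNA 2 was 33.3-fold above shRNA 1 (15.0 to 91.9). With an average log2 fold of 0.87 ± 3.28 (SD, n = 2), the spread exceeded the mean, and edgeR gave 2.35 (SE 1.87) and an adjusted p of 0.804. Its neighbour AKR1B15, a close copy with which it may share reads, had 2, 2 and 7 counts.

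AKR1C1, which inactivates progesterone, and AKR1C3, which makes testosterone and prostaglandin F, are known NRF2 targets in epithelial cancer cells. AKR1C1 (ENSG00000187134; chromosome 10, 4963253 to 5107522 in the deposited table and 4963253 to 4983283 in GENCODE release 29, plus strand) had 6, 4 and 6 counts, with ratios of 0.563 (95% counting interval 0.117 to 2.38) and 0.880 (0.235 to 3.29). AKR1C3 (ENSG00000196139; chromosome 10, 5035354 to 5107686, plus strand) had 2, 0 and 0 counts, and a second row under the same symbol (ENSG00000282883) had 0 in all libraries. A count of 0 allows up to 3 counts, which is 0.167 scaled CPM with shRNA 1 and 0.174 with shRNA 2, so no fold is given. AKR1C2, nearly identical to AKR1C1, had 3, 0 and 4 counts, and AKR1C4 had 0 in every library. In the deposited table the AKR1C loci lie over each other, so how reads of these copies were assigned is uncertain; in GENCODE release 29 AKR1C1 and AKR1C3 share no exon bases.

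The other tested aldo-keto reductases of the cells were AKR1B1, AKR1A1 and AKR7A2, 3 of 9 listed. AKR1B1, aldose reductase, was by far the most counted, at 15827, 34846 and 13244 (ratios 1.86 and 0.736), and AKR1A1 had 674, 1404 and 694 counts (1.76 and 0.906). AKR1B10 and AKR1B1 were thus opposite in order between the hairpin libraries: the former was higher with shRNA 2 and the latter with shRNA 1. The list medians were 0.81 and -0.32.

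PIR encodes pirin, an iron-binding nuclear protein that acts as a redox sensor for NF-kappaB. PIR (ENSG00000087842; chromosome X, 15384799 to 15493564, minus strand) had 10, 82 and 26 counts, or 0.659, 4.56 and 1.51 scaled CPM. Both hairpin libraries were above the control, by 6.93-fold (95% counting interval 3.58 to 15.0) and 2.29-fold (1.07 to 5.31). The log2 fold of PIR averaged 1.83 ± 1.08 (SD, n = 2) and so exceeded its SD, while edgeR gave 2.19 (SE 0.99) with an adjusted p of 0.562. Over all fits that adjusted p ranged from 0.473 to 0.747. PIR shares no exon bases with BMX, the gene it overlaps on the opposite strand. Among 12997 protein-coding genes tested, those nearest in both log2 folds were LUZP2 (6, 61 and 16 counts), KIAA0319 (5, 40 and 14) and ELOVL6 (79, 653 and 203), by distance over 2 values from 3 libraries that share the control.

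Counted together, 8 of the 10 genes had a mean of at least 1 CPM and were tested. The filter used CPM by library totals. On that scale SRXN1 (0.974) and PIR (0.609) were below 1 in the control and passed only through the hairpin libraries. AKR1B10, at 1.04, 0.34 and 11.8, passed only through the shRNA 2 library. Of the 8, PIR alone (12.5%) was at least 2-fold from the control with both hairpins (background 9.79% of 15132 genes, 5.29% higher and 4.50% lower, or 800 and 681 genes; scaled by library totals, 1030 and 553). With shRNA 1, 1 of the 8 was at least 2-fold higher (background 7.92%) and 2 were lower (7.38%; 15.3% either way). With shRNA 2, 3 were higher (13.0%) and none lower (8.76%; 21.7% either way). At least 2-fold apart between the hairpin libraries were 4 of the 8 (12.8%): TXNRD1, HMOX1 and AKR1B10 higher with shRNA 2 (8.35%), and PIR lower with it (4.48%). AKR1B10 and PIR enter these counts only through hairpin libraries in which they were high. The control lay outside both hairpin libraries for 5 of the 8 (71.2% of all genes tested), above them for HMOX1, GCLM and SRXN1 and below them for TXNRD1 and PIR. With library totals (72.5% of all genes) or the deposited FPKM it was 6 of the 8, with the control below both hairpin libraries for NQO1 and SRXN1 as well. The medians over the 8 were -0.15 with shRNA 1 and 0.05 with shRNA 2, close to those of all genes. By edgeR's test none of the 8 passed (background 0.0397%), and none had an unadjusted p below 0.05 by edgeR (background 10.2%), DESeq2 or limma. DESeq2 and limma passed none of the 8 either (3.51% and 0.00%). The edgeR test has 1 residual degree of freedom and assumes that the lone control varies like the hairpin libraries.

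**Figure D3:**
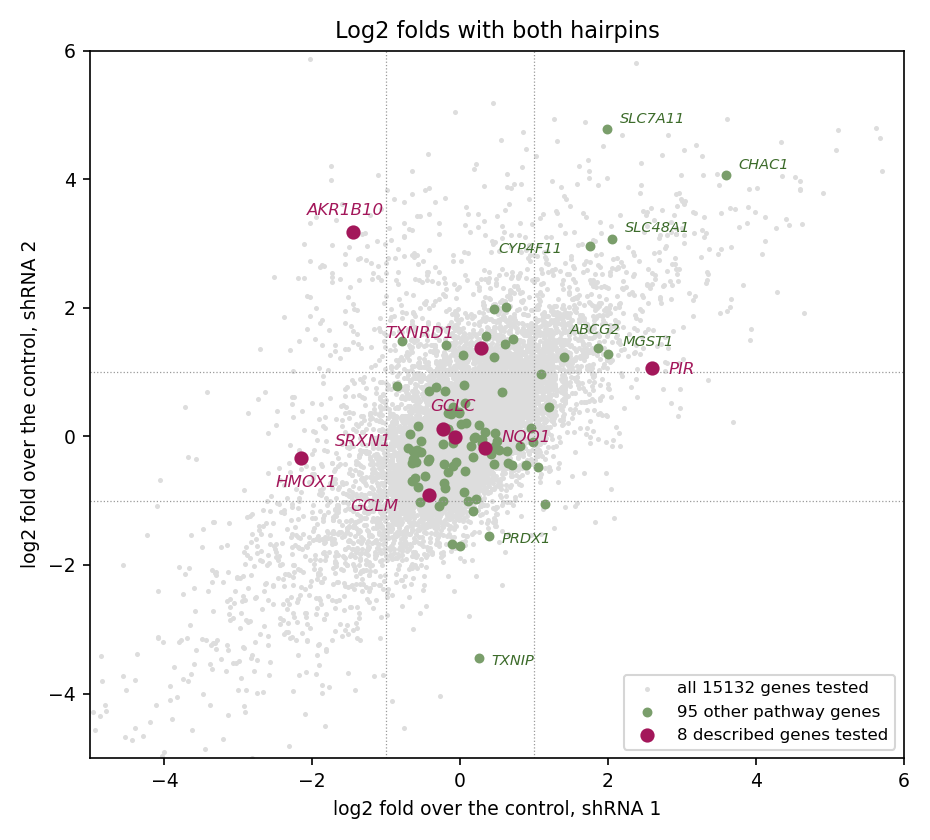
Log2 fold over the control with shRNA 1 (x axis) and shRNA 2 (y axis) for the 8 described genes tested, 95 other pathway genes and all 15132 genes tested; dotted lines mark 2-fold, both axes run from -5 to 6, and 52 genes beyond them are not drawn. The described genes lie in different quadrants, with PIR alone past 2-fold on both axes in the same direction; both axes share the control library.

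The regulators of the pathway were compared next. NFE2L2 had 1269, 2233 and 2338 counts, with ratios of 1.49 and 1.62. KEAP1, its inhibitor, had 2114, 1860 and 1892 counts (0.744 and 0.787), and the repressor BACH1 had 638, 493 and 603 (0.653 and 0.831). The adjusted p of edgeR was 0.628 for NFE2L2, 0.807 for KEAP1 and 0.8 for BACH1. SQSTM1, an autophagy receptor that sequesters KEAP1 and is itself an NRF2 target, had 4982, 3247 and 9712 counts (0.551 and 1.71), and the related factor NFE2L1 4465, 4501 and 4671. Of 12 regulators, all tested, none was at least 2-fold from the control with both hairpins (9.79% of all genes), and the medians were -0.32 and 0.02. NRF2 is regulated mostly through its protein, which these counts do not measure.

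NADPH feeds TXNRD1, NQO1 and the aldo-keto reductases. None of 9 genes of NADPH supply was at least 2-fold from the control in the same direction with both hairpins (9.79% of all genes). Transketolase, TKT, had 5381, 8831 and 6323 counts (1.39 and 1.03), and MTHFD2, of the mitochondrial folate cycle, had 1286, 2083 and 5799 (1.37 and 3.97). The medians of the list were 0.46 and 0.05.

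Export pumps that carry glutathione conjugates and drugs are a further group of NRF2 targets. Of 7 listed, 6 were tested, and 2 exceeded the control at least 2-fold with both hairpins, against 5.29% of all genes (3.51% passed DESeq2): ABCG2, the breast cancer resistance protein, with 308, 1339 and 911 counts (ratios 3.67 and 2.60; adjusted p = 0.206 by edgeR and 0.0385 by DESeq2) and ABCC4 with 225, 707 and 606 (2.66 and 2.37; 0.271 and 0.208). The list medians were 0.57 with either hairpin. Among 14 other reported NRF2 targets, 13 were tested and none was at least 2-fold away with both (9.79% of all genes). SLC6A6, a taurine importer, had 1039, 2010 and 863 counts and TSKU 1256, 1030 and 1362. Superoxide dismutases SOD1 (2760, 3389 and 1725) and SOD2 (1665, 1812 and 2413) showed opposite orders between the hairpins.

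Across all 113 other pathway genes, 95 were tested. At least 2-fold higher with both hairpins were 7 of them, 7.37% against a background of 5.29%, and none was lower by that size against 4.50%. These 7 were CHAC1, SLC7A11, MGST1, SLC48A1, CYP4F11, ABCG2 and ABCC4. DESeq2 passed 5 of the 95 (5.26%, background 3.51%), namely these genes without SLC7A11 and ABCC4, and edgeR passed none, with 9 (9.47%) at an unadjusted p below 0.05, against 10.2% of all genes. With shRNA 1 by itself 11 were at least 2-fold higher (11.6%, background 7.92%) and none lower (background 7.38%). With shRNA 2 by itself 16 were at least 2-fold higher (16.8%, background 13.0%) and 9 lower (9.47%, background 8.76%). The medians over the 95 were 0.06 and -0.10.

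**Figure D4:**
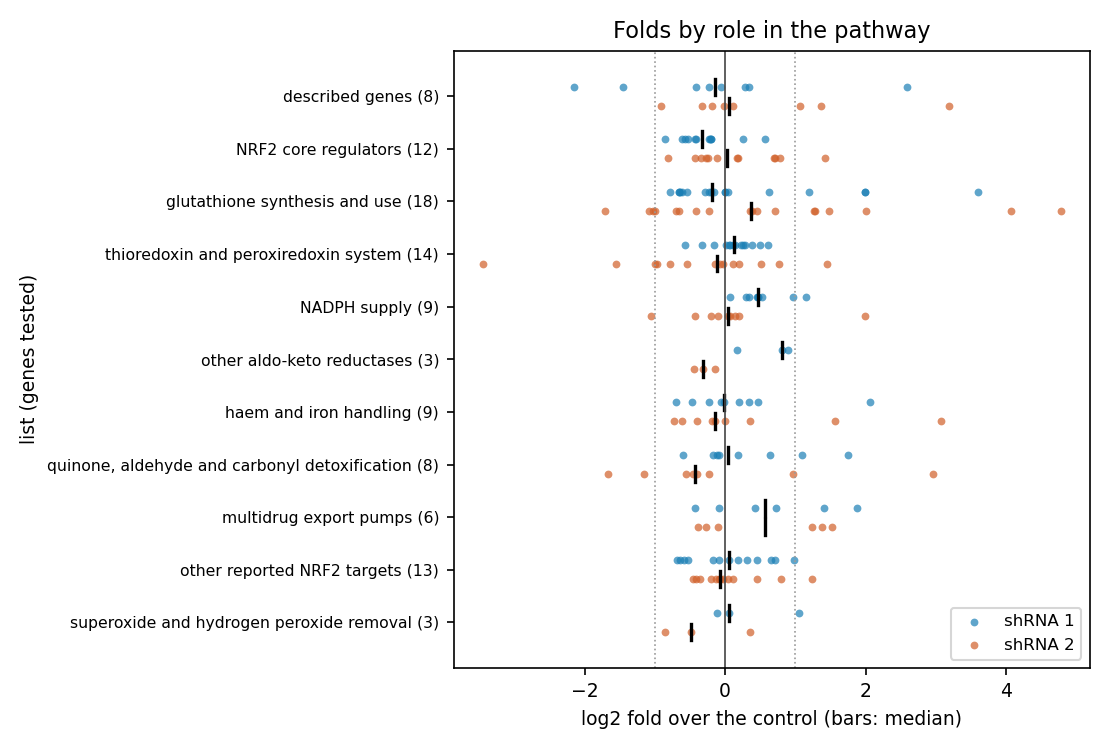
Log2 folds over the control of the described genes and of the genes in each pathway list, by hairpin, 1 point per gene tested; black bars are medians and dotted lines mark 2-fold. Apart from the other aldo-keto reductases with shRNA 1 (0.81), the list medians lie between -0.48 and 0.57, and the points furthest right belong to the glutathione list (SLC7A11 and CHAC1).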

How the data were processed

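The authors deposited, per gene and library, whole-number read counts and FPKM values (counts divided by gene length and library total). The submitters' processing notes name TopHat2 2.0.9 and hg38. Which counting tool, strand setting and annotation were used is not given in the sources used here. The row of 1 gene, broken over 4 lines, was left out. No other per-sample columns were present.

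The 15132 genes whose mean reached 1 CPM were tested with edgeR 4.0.16 (quasi-likelihood, TMM factors 0.924, 1.02 and 1.06), two-sided, hairpin libraries against control; p-values were adjusted over all genes by Benjamini-Hochberg, with a threshold of 0.05. Log2 folds per hairpin used a prior count of 2. The SE beside an edgeR log2 fold is not printed by edgeR. It was derived as the size of that fold divided by the square root of the test's F statistic. Ratios of scaled counts have exact conditional binomial 95% intervals (SciPy 1.17.1), and these and the floor of 3 counts cover counting error only. Since no label tells of separate cultures, p-values reflect only how these libraries differ, which may be technical. Alternatives were DESeq2 1.42.0, limma 3.58.1, other scalings and filters, a prior count of 0.5, log2(FPKM + 0.1) and leaving out a hairpin.

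The members and lists were chosen with earlier results of these data known. From each list, up to 3 genes at least 2-fold from the control with both hairpins were named or, with fewer than 2, also the 2 of highest mean CPM. The 10 genes, LINC00958, NFE2L2, KEAP1, BACH1, AKR1C2 and AKR1B15 were always named. AKR1C4, AKR7A2 and single marker genes were named after their values were seen. Gene structures came from GENCODE release 29 and start-site windows from RefSeq.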

Additional observations from a re-analysis of the deposited data

How the results depend on the processing

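None of the genes tested passed under any scaling, filter or test (edgeR, DESeq2 or limma), except that DESeq2 gave SRXN1 no adjusted p. The number at least 2-fold from the control with both hairpins was 1, against 2 without a filter (the second is AKR1C3, at 2, 0 and 0 counts) and 0 with a mean of at least 5 CPM, where PIR was not tested. With either hairpin left out it was 3, since AKR1B10 joined PIR, with TXNRD1 or HMOX1. The median log2 fold with shRNA 1 moved from -0.15 to -0.33 without a filter. With shRNA 2 it moved from 0.05 to 0.24 with library totals, -0.12 without a filter, -0.15 at 5 CPM and 0.22 with the deposited FPKM. These medians cover 10 genes without a filter, 5 at 5 CPM and 8 in the other settings. Library totals put the median of all genes at 0.14 and 0.24, in place of 0.01 and 0.04 with TMM. The mean log2 fold of GCLC and of SRXN1 turned positive, to 0.11 each with library totals and 0.10 each with FPKM. With 1 hairpin left out, which leaves no test, the log2 fold ran from -0.18 to 0.34 for NQO1, -0.23 to 0.11 for GCLC and -1.45 to 3.18 for AKR1B10. The other 70 gene-level values kept their direction. Over all genes, 6 passed with edgeR and 531 with DESeq2. None passed with limma (1560 at an unadjusted p below 0.05), with edgeR without a filter (1461) or with edgeR at 5 CPM (1240). At least 2-fold away with both hairpins were 2805 genes without a filter and 979 at 5 CPM, against 1481. Depth limits SRXN1, AKR1C1, AKR1C3, AKR1B10 and PIR, each at 17 counts or fewer in the control. No paired analysis was possible because the control has 1 library and the hairpin numbers name different hairpins.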

Other observations

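Several pathway genes at least 2-fold from the control with 1 hairpin or the other were picked here after their values were seen. All but GSR (1.68-fold) were also at least 2-fold apart between the hairpin libraries. TXNIP, an inhibitor of thioredoxin that responds to glucose, had 1943, 2735 and 200 counts (control, shRNA 1, shRNA 2). With shRNA 2 the glutaredoxin gene GLRX (128, 152 and 43 counts) and the carbonyl reductase genes CBR1 (469, 628 and 238) and CBR3 (43, 47 and 14) were also at least 2-fold below the control, and MAFF, a small MAF partner of NRF2, was above it (441, 455 and 1341). With shRNA 1 the glutathione reductase gene GSR (605, 1648 and 944), catalase, CAT (440, 1078 and 358), and the cytosolic isocitrate dehydrogenase gene IDH1 (1034, 2711 and 567) were at least 2-fold above the control. IDH1 was also at least 2-fold below the control with shRNA 2 (ratio 0.482). Each hairpin is represented by 1 library, so these differences have no replicate check.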
